A study of Rattus norvegicus with 30 samples.

Results

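The 10 genes described here encode chaperones and regulators of the endoplasmic reticulum (ER): Hspa5, Hsp90b1, Calr, Pdia4, Pdia6, Sdf2l1, Dnajb9, Manf, Xbp1 and Herpud1. They were chosen by name as a set and taken by symbol from a table of 17353 genes. All 10 symbols were found, and all 10 had a mean of at least 1 FPKM (a measure of expression in which fragments are divided by transcript length and by library size), as did 8940 genes in all. RNA came from REF, a line of rat embryonic fibroblasts. Control cells were not starved, and serum was withheld from the other 9 groups until harvest on day 2, 3, 4, 6, 8, 10, 12, 14 or 16. There were 10 groups of 3 total RNA libraries, which the series describes as biological replicates, 30 in all. All groups are of the same line, and the control is a single time point, so days without serum cannot be told apart from days in culture. Values are means ± SD of 3 libraries unless stated otherwise, changes are differences of log2(FPKM + 1) ± SE, and p-values are from limma, adjusted over the 8940 genes by the Benjamini-Hochberg method with a threshold of 0.05.

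Secreted and membrane proteins are folded in the ER by a shared set of chaperones. When unfolded proteins accumulate there, 3 sensors in the ER membrane start the unfolded protein response. IRE1 splices the mRNA of the transcription factor XBP1, ATF6 is cut in the Golgi to release a transcription factor, and PERK phosphorylates the translation factor eIF2α, which lowers general translation and favours translation of ATF4. ATF6 and spliced XBP1 drive chaperone and ER-associated degradation genes through short promoter motifs, the ER stress response elements. Fibroblasts secrete large amounts of matrix protein, and their ER is built for that load.

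The ER stress response element (ERSE), searched as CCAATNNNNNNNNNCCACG on both strands, was found in 22 of 33469 RefSeq promoters of 300 bases (0.0657%). These run from 250 bases before to 50 bases after the gene start on the GRCr8 build, which is not the build of the expression files. Promoters of 8 of the 10 genes were matched, and 4 of those 8 held the element: Hspa5, Hsp90b1, Calr and Xbp1. The related ERSE-II, ATTGGNCCACG, was found in 17 promoters (0.0508%), among them that of Herpud1. The matching stretches are shown because each of these 5 genes holds either an ERSE or, in Herpud1, an ERSE-II near its start, with the element in capitals and each written 5′ to 3′ on the strand of the gene. A CGTGG start marks an element on the other strand.
Hspa5, chr3:38452953-38453011, plus strand: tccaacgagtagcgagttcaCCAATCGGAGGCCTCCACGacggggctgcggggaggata
Hsp90b1, chr7:23012327-23012489, minus strand: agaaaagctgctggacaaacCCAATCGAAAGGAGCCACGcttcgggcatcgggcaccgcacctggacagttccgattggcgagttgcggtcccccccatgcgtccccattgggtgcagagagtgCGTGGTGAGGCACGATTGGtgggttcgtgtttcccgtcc
Calr, chr19:40213117-40213173, plus strand: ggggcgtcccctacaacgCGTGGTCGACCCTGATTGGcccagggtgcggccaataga
Xbp1, chr14:84604538-84604596, plus strand: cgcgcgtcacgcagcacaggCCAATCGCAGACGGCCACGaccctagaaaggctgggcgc
Herpud1, chr19:10614801-10614851, minus strand: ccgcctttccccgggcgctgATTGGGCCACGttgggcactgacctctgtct

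The Hspa5 element lies 43 to 25 bases before the gene start and that of Xbp1 65 to 47 bases before it. Hsp90b1 has an element on the gene strand at 176 to 158 bases and another on the other strand at 72 to 54 bases. The Calr element, on the other strand, lies at 232 to 214 bases, and the Herpud1 ERSE-II at 124 to 114 bases. A match shows that these letters are present, not that a factor binds there. The UPRE core TGACGTGG, which occurs in 0.595% of promoters, and the CRE-like core TGACGTCA, which occurs in 1.83%, were not in any of the 8 windows, and this says nothing of sites elsewhere.

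The libraries summed to between 582501 and 785072 FPKM. The deposited files hold no counts, so their depth is unknown and no counting error can be given. Libraries of a group correlated at 0.9814 to 0.9913 across genes. Of 12 fibroblast markers, 8 had a mean of at least 1 FPKM, and vimentin reached 5655 FPKM in its highest library, but the means of Thy1, Pdgfra and Dcn were below 1 and Col1a2 was listed at 0 in every library. The summed level of the list was 17219 to 19491 in controls, 30687 to 35937 at day 2 and 16194 to 17731 at day 16, when 4 of the 8 were higher than in controls (Pdgfrb by 2.57 and Fn1 by 1.67 among them) and 3 lower (S100a4 fell by 1.33). No macrophage or endothelial marker had a mean of at least 1 FPKM over the 30 libraries (0 of 6 and 0 of 5). The macrophage list still summed to between 7.11 and 7.40 in controls. It summed to between 1.79 and 2.16 at day 2 and between 0.878 and 1.04 at day 16. For skeletal muscle, 3 of 6 markers had a mean of at least 1 FPKM, Myod1 among them. Their list summed to between 315 and 338 in controls but to between 38.8 and 47.1 at day 16. Myod1 and Des were lower at day 16 than in controls (-6.57 and -1.70), whereas Tnnt2 was higher (2.41), after a mean of 141 FPKM at day 2 against 2.22 in controls. For epithelium it was 1 of 6, Krt8, and that list summed to between 10.9 and 12.9 in controls and between 62.2 and 75.8 at day 16. Of 3 plasma cell markers matched, 1 did, Sdc1, and that list summed to between 113 and 120.2 in controls and between 45.8 and 47.8 at day 16. The part of these shifts in the values below was not tested. In cultures sequenced in bulk, fewer cells of a kind and less RNA per cell cannot be told apart.

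The levels of these genes did not move as a block. After 2 days without serum, 6 of the 10 were lower than in controls, against 30.7% of all tested genes. These were the chaperones and cofactors Hspa5, Hsp90b1, Pdia4, Calr and Sdf2l1 and the transcription factor Xbp1. Another 2 were higher, Herpud1 and Dnajb9, against 30% of all tested genes. The calls of Calr and Dnajb9 were lost when some single libraries were left out. By day 3 most chaperones were back near or above their control level. Xbp1 was lower than control, and Herpud1 higher, in every starved group. Among the 9 starved groups, 9 of the 10 genes differed between days by limma's F test, where 61.5% of all tested genes did. The exception was Manf (adjusted p = 0.582), which passed with the replicate block (adjusted p = 0.0427), with replicates 2 and 3 alone (adjusted p = 0.0387) and with libraries rescaled to the same sum (adjusted p = 0.0178).

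**Figure D1:**
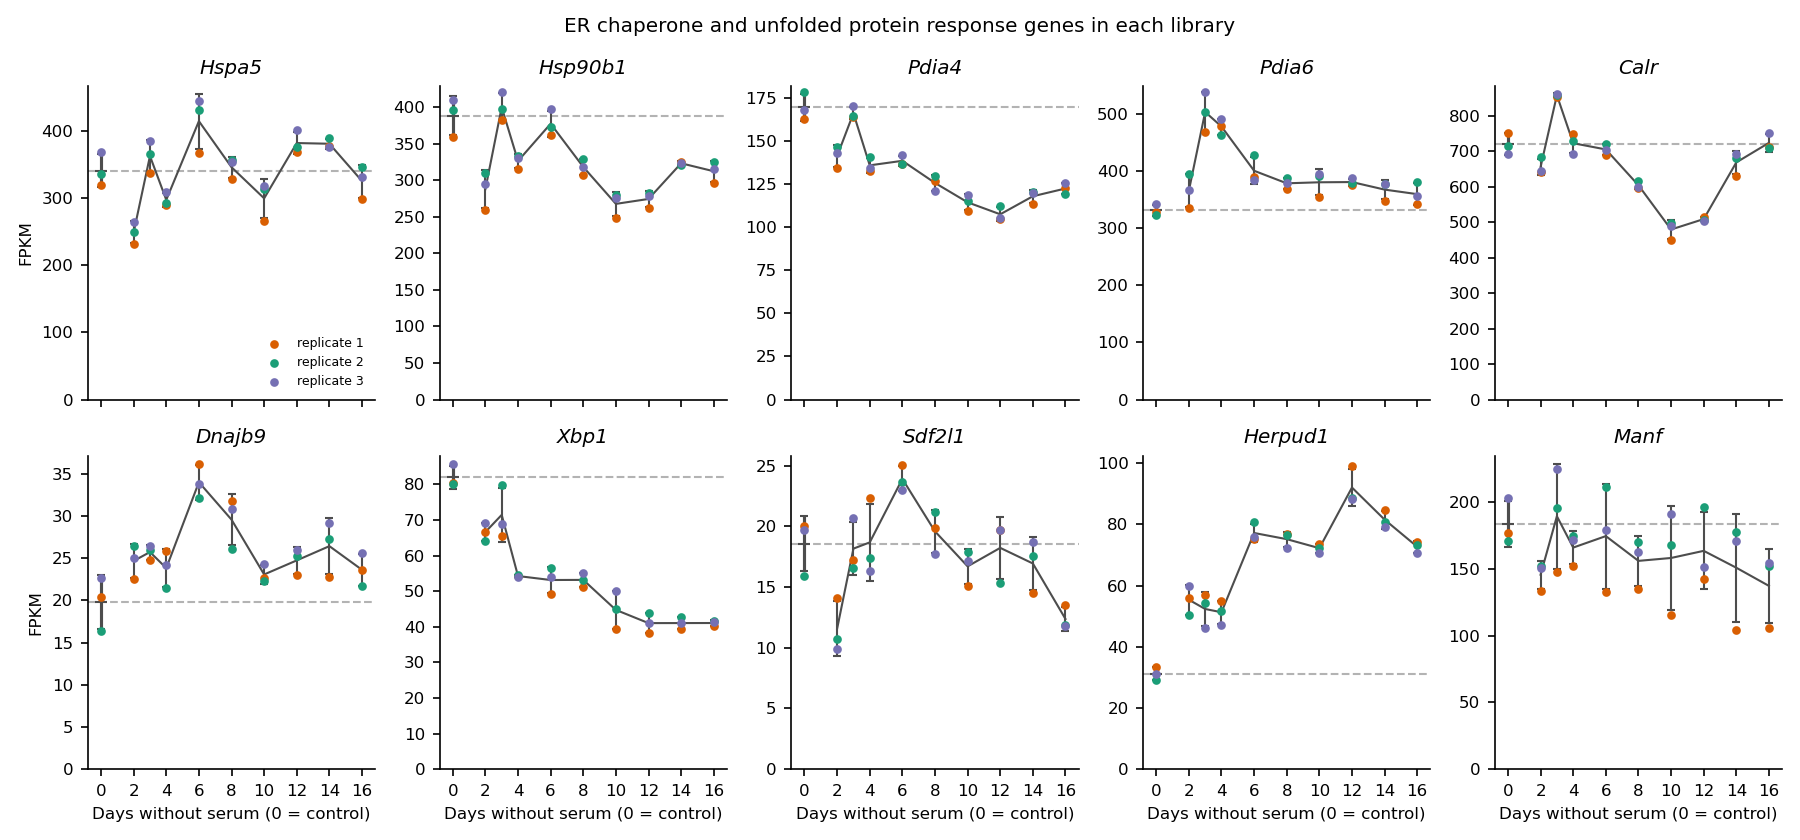
FPKM of each of the 10 genes in the 30 libraries, against days without serum with the control at 0; points are libraries coloured by replicate number, lines with bars are means and SD of 3, and the dashed line is the control mean. Hspa5, Hsp90b1 and Calr dip at day 2 and peak again by day 3 or day 6. Xbp1 stays below control, with its day 3 mean above that of day 2, and Herpud1 steps up.

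Hspa5 encodes BiP, the Hsp70 chaperone of the ER lumen that also binds and restrains the stress sensors. Its FPKM were 319, 336 and 368 in the controls, 233, 249.7 and 265 at day 2, and 338, 365 and 386 at day 3. Every day 2 library was below every control and every day 3 library. At day 6 the 3 libraries gave 368, 432 and 445, the highest mean of any group (415 ± 41.2). At day 16 they gave 299, 347 and 331, overlapping the controls with 1 library below all of them. The change was -0.45 ± 0.08 at day 2 against control (adjusted p = 4.22e-05) and 0.47 ± 0.08 at day 8 against day 2 (adjusted p = 5.19e-05). Day 16 did not differ from control beyond the error (-0.07, 95% interval -0.24 to 0.10, adjusted p = 0.484). Ordered by mean, only day 2 stood apart from its neighbour, day 4 (298 ± 10.6), and the other neighbours overlapped.

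Hsp90b1 encodes GRP94, the Hsp90 of the ER. Its controls were 359, 397 and 409.8 FPKM and its day 2 libraries 259, 309.9 and 295, with no overlap. The day 3 libraries, 383, 397 and 421, lay in and above the control range. The level then ran lower, with 249, 279.8 and 275 at day 10, the lowest mean (268 ± 16.9), and 297, 325 and 316 at day 16. In 7 of the 9 starved groups every library was below every control. The gene fell by 0.43 ± 0.07 at day 2 (adjusted p = 7.09e-06) and differed from control by -0.31 ± 0.07 at day 16 (95% interval -0.46 to -0.17, adjusted p = 0.000321). Day 8 against day 2 missed the threshold (0.15 ± 0.07, adjusted p = 0.102). Each scaling alternative called it higher, the largest value being with libraries rescaled to the same sum (0.25, adjusted p = 0.0106), as did leaving out replicate 2 of day 2 (0.20, adjusted p = 0.0424).

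Calr encodes calreticulin, a calcium-binding lectin that holds newly made glycoproteins for folding. It had the highest level per length of the 10 genes, rank 152 by mean among the 8940. Controls gave 753, 715 and 693 FPKM and day 3 gave 852, 859 and 862, above every other library. The level then declined to 450.1, 498 and 490.0 at day 10, below every library of every other group. It was back at 711, 708 and 752 at day 16, inside the control range. Day 16 against day 8 was a rise of 0.26 ± 0.06 (adjusted p = 0.00117), and day 16 against control was 0.01 (95% interval -0.11 to 0.13, adjusted p = 0.923). The smaller dip at day 2 (641, 683 and 643 FPKM, -0.14 ± 0.06, adjusted p = 0.0448) lost its call under several settings, for example upper-quartile rescaling (-0.03, adjusted p = 0.612), the exclusion of replicate 1 from every group (-0.09, adjusted p = 0.196) or of control replicate 1 alone (-0.10, adjusted p = 0.173), and quantile normalization turned it to 0.10 (adjusted p = 0.234). The rise from day 8 to day 16 kept its direction but not its call with libraries rescaled to the same sum (0.09, adjusted p = 0.447) or quantile normalized (0.12, adjusted p = 0.181).

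Pdia4 and Pdia6 encode protein disulfide isomerases, which form and rearrange disulfide bonds. Pdia4 held 163, 178 and 168 FPKM in controls, 134, 147 and 143 at day 2, and 164, 164 and 170.2 at day 3. From day 4 on every library was below every control, down to 105, 112 and 105 at day 12. Its change was -0.26 ± 0.05 at day 2 (adjusted p = 0.00017) and -0.47 ± 0.05 at day 16 (123, 119 and 126 FPKM, adjusted p = 3.08e-08). The fall from day 2 to day 8 (-0.17 ± 0.05, adjusted p = 0.017) was not called when replicate 2 or 3 of day 2 or replicate 3 of day 8 was left out (adjusted p = 0.0846, 0.0528 and 0.0873), nor with libraries rescaled to the same sum (-0.07, adjusted p = 0.589).

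The levels of Pdia6 lay above control where those of Pdia4 lay below. Its controls of 329, 322 and 342 FPKM were followed by 336, 394 and 366 at day 2 and by 469, 504 and 538 at day 3. Day 4 held 479.7, 463 and 491, and these 2 groups lay above every other library. In 8 of the 9 starved groups every library was above every control, the exception being day 2, whose lowest library fell among the controls. Day 16 held 342, 380.5 and 356, its lowest library level with the highest control. The change at day 2 was 0.14 ± 0.07 (adjusted p = 0.0793), and at day 16 it was 0.12 (95% interval -0.02 to 0.26, adjusted p = 0.13). With the replicate number as a block, the day 2 change was called (0.14, adjusted p = 0.0285), as it was after upper-quartile rescaling (0.24, adjusted p = 0.000236), which also called day 16 (0.23, adjusted p = 0.000263).

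Sdf2l1 encodes a lumenal cofactor of the BiP cycle, and its mRNA is known as a sensitive target of the unfolded protein response. As with Hspa5, its mean was lowest at day 2 and highest at day 6, at a much lower expression. Controls gave 20.04, 15.9 and 19.7 FPKM, day 2 gave 14.1, 10.7 and 9.88, and day 6 gave 25.05, 23.6 and 23.03, the highest group, whose libraries did not overlap any other. Day 16 was again low, at 13.5, 11.8 and 11.8, below every control. Between its highest and lowest starved groups Sdf2l1 spanned a ratio of 2.07, the widest of the 10. It fell by 0.65 ± 0.13 at day 2 (adjusted p = 0.000182), rose by 0.72 ± 0.13 from day 2 to day 8 (adjusted p = 0.000108) and fell by 0.62 ± 0.13 from day 8 to day 16 (adjusted p = 0.00089). Hspa5 did not pass the threshold from day 8 to day 16 (-0.09, adjusted p = 0.435), but did with libraries rescaled to the same sum (-0.26, adjusted p = 0.0035). At days 12 and 14 the mean of Hspa5 was 112.1% and 111.8% of control, and that of Sdf2l1 was 98.2% and 91.3%. The difference between these 2 genes was not tested.

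Dnajb9 encodes ERdj4, a J-domain cochaperone that delivers clients and the sensor IRE1 to BiP. The controls held 20.4, 16.4 and 22.6 FPKM, day 2 22.6, 26.4 and 25.04, and day 6 36.2, 32.1 and 33.7. Day 6 lay above every other library, and day 2 overlapped the controls. At day 16 the values were 23.6, 21.7 and 25.6, still overlapping the controls. In 5 of the 9 starved groups, day 6 and day 8 among them, every Dnajb9 library was above every control. Its changes were 0.31 ± 0.11 at day 2 (adjusted p = 0.0134), -0.31 ± 0.11 from day 8 to day 16 (adjusted p = 0.0281) and 0.25 ± 0.11 at day 16 against control (adjusted p = 0.0391). All these calls rested on single libraries. Without control replicate 2, the lowest library, neither day 2 (0.19, adjusted p = 0.137) nor day 16 (0.13, adjusted p = 0.305) was called against control. Leaving out replicate 2 of day 2 also ended the day 2 call (adjusted p = 0.0641), and leaving out replicate 1 or 3 of day 16 ended the call against control (adjusted p = 0.0728 and 0.155). Leaving out replicate 1 or 3 of day 8 ended the fall from day 8 to day 16 (adjusted p = 0.113 and 0.0997), as did leaving out replicate 1 or 2 of day 16 (adjusted p = 0.0615 and 0.126).

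Manf encodes a secreted and ER-resident factor that binds BiP. Its libraries spread the most, with a coefficient of variation of up to 26.8% within a group. Controls gave 177, 171 and 203 FPKM, day 2 134, 152 and 151, and day 16 105, 152 and 154, so that every library of days 2 and 16 was below every control. Even so, neither day 2 (-0.33 ± 0.21, adjusted p = 0.171) nor day 16 (-0.43, 95% interval -0.86 to -0.01, adjusted p = 0.0663) passed the threshold.

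The spread of Manf followed the replicate number. Replicate 1 was the lowest of its group in 9 of 10 groups, at a median of 0.755 of the mean of the other 2 libraries (range 0.599 to 0.947). Replicate 1 was also lowest in 9 of 10 groups for Hspa5 (median ratio 0.905) and Hsp90b1 (0.934), while for Herpud1 it was the highest in 8. Among all tested genes, 942 (10.5%) had replicate 1 lowest in at least 9 groups. The first principal component of the deviations from group means (28.7% of their variance) placed the 10 libraries numbered 1 between -17.8 and -5.79 and the other 20 between 0.765 and 12.96. For control and day 2, and for control and day 16, the deviations of same-numbered libraries all correlated at over 0.1. The fit with the replicate number as a block is given there beside the main values, which have no block. With the replicate block, Manf was called lower at day 2 (-0.33, adjusted p = 0.0186) and at day 16 (-0.43, adjusted p = 0.00245). With replicates 2 and 3 alone, the values were -0.29 (adjusted p = 0.0394) and -0.28 (adjusted p = 0.0445). What the number stands for is not given in the labels.

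**Figure D2:**
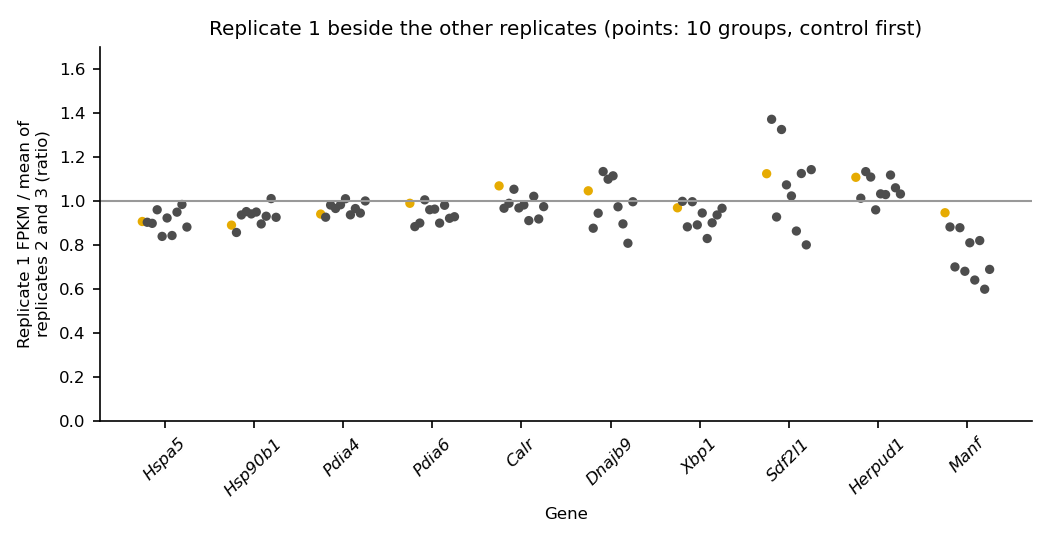
FPKM of replicate 1 divided by the mean of replicates 2 and 3, for each of the 10 genes in each of the 10 groups; the line at 1 marks equal levels and the control is the coloured point. The points of Manf lie lowest, between 0.599 and 0.947, and most of those of Herpud1 lie above 1.

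Xbp1 encodes the transcription factor that IRE1 activates by splicing its mRNA. The values here are of the gene as a whole and do not separate the spliced from the unspliced form. Controls held 80.3, 80.0 and 85.7 FPKM and day 2 held 66.6, 64.2 and 69.1. Day 3 held 65.6, 79.9 and 68.8, the highest of them just under the lowest control. From day 4 to day 14 the libraries lay between 38.2 and 56.4, and at day 16 they were 40.1, 41.7 and 41.3. Every starved library was below every control, and the mean of days 12, 14 and 16 was 50.0% to 50.1% of control. The gene fell by 0.30 ± 0.08 at day 2 (adjusted p = 0.00214), by 0.32 ± 0.08 from day 2 to day 8 (adjusted p = 0.00211) and by 0.36 ± 0.08 from day 8 to day 16 (adjusted p = 0.00089). Against control, day 16 was -0.98 (95% interval -1.14 to -0.82, adjusted p = 3.25e-11). These 4 comparisons share libraries, so they do not count as separate evidence. For Hspa5 and Calr, which also carry an ERSE in the windows shown above, the day 16 intervals against control included 0.

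Herpud1 encodes HERP, an ER membrane protein that organises the ubiquitin ligase complexes of ER-associated degradation. Its rise against control was the largest among the 10 genes. Controls gave 33.3, 29.2 and 31.0 FPKM, day 2 gave 55.8, 50.3 and 59.97, and day 6 gave 75.1, 80.6 and 75.8. The highest group was day 12, with 99.0, 88.6 and 88.4 (92.0 ± 6.03, 295.5% of control), and day 16 gave 74.2, 73.3 and 70.5. The groups fell into levels that did not overlap: control, then days 2 to 4, then days 6, 8, 10, 14 and 16, then day 12. The rise was 0.81 ± 0.08 at day 2 (adjusted p = 1.39e-09), 0.44 ± 0.08 from day 2 to day 8 (adjusted p = 5.91e-05), and 1.20 ± 0.08 at day 16 against control (adjusted p = 4e-13). Between days 8 and 16 it did not differ beyond the error (-0.05, adjusted p = 0.674). The promoter of Herpud1 holds the ERSE-II and no ERSE in the window searched.

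Counted over the set, 2 of 10 genes were higher and 6 lower at day 2 than in controls, where 30% and 30.7% of all tested genes were. With the replicate block, Pdia6 joined the higher and Manf the lower genes. The median change of the 10 was -0.28 on the log2 scale, and that of all genes was 0.00. From day 2 to day 8, 3 were higher (Hspa5, Sdf2l1 and Herpud1) and 2 lower (Pdia4 and Xbp1), against 17.4% and 18.4% of all genes. From day 8 to day 16, 1 was higher (Calr) and 3 lower (Dnajb9, Xbp1 and Sdf2l1), against 15.8% and 14.4%. At day 16 against control, 2 were higher (Herpud1 and Dnajb9) and 4 lower (Hsp90b1, Pdia4, Xbp1 and Sdf2l1), against 32.4% and 35.0%, and with the replicate block Manf joined the lower genes. Only the 6 lower at day 2 lie more than 2 genes from what these shares give for 10 genes. That margin depends on Calr (adjusted p = 0.0448 by limma), whose day 2 call was lost under several settings. Without Calr the count would lie inside it. Rescaling every library to the same sum of FPKM moved the share of all calls that were higher from 48.7% to 64.0% for day 8 against day 2 and from 52.2% to 22.9% for day 16 against day 8. The same rescaling shifted the median of all genes from day 8 to day 16 by -0.16, so changes of that size there depend on how the libraries are scaled.

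**Figure D3:**
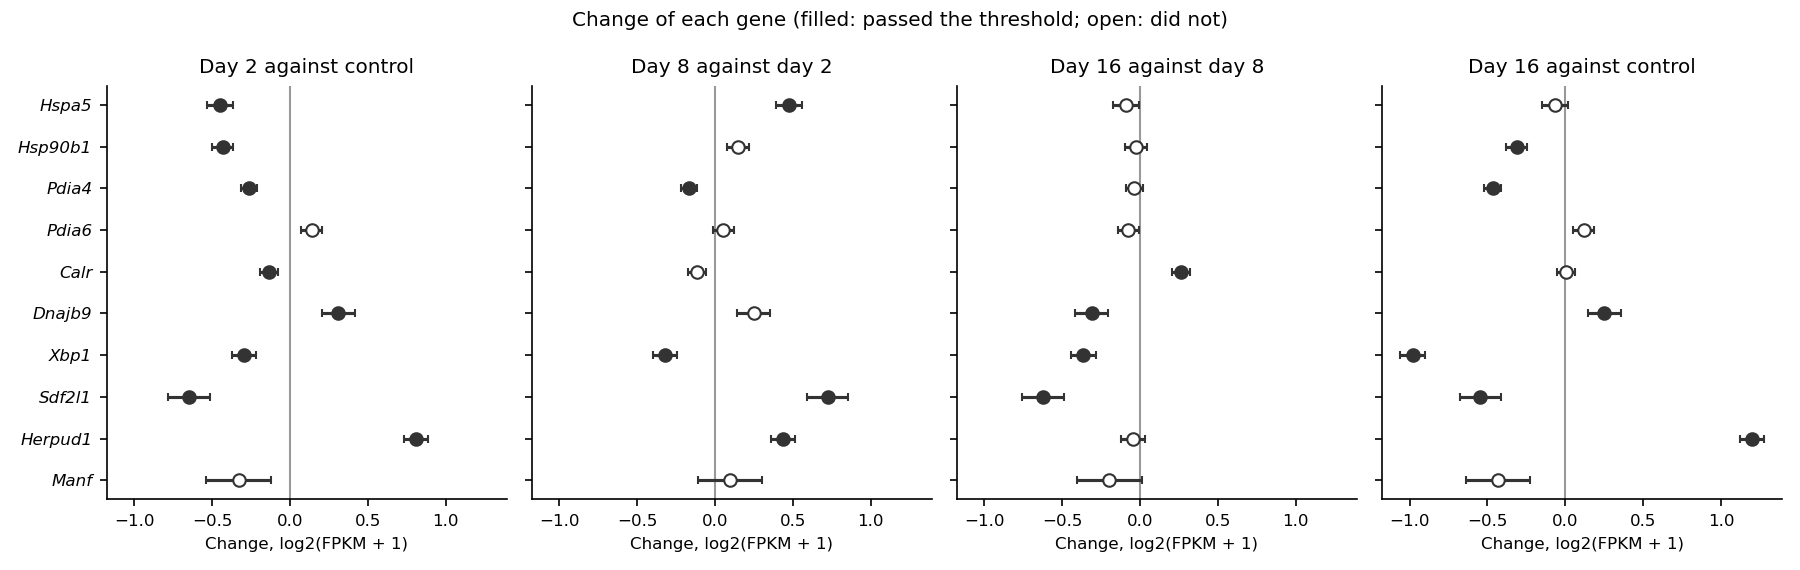
Log2 change of each of the 10 genes in the 4 comparisons, with bars for its SE; filled points passed the threshold and open points did not. Herpud1 stands at 1.20, Xbp1 at -0.98 and Calr at 0.01 for day 16 against control.

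The largest joint movement fell between day 2 and day 3. Differences between neighbouring time points were added after the values were seen, and each group from day 3 to day 14 enters 2 of them. From day 2 to day 3, 6 of the 10 genes rose, against 7.83% of all tested genes, and 0 fell, against 8.58%. No member fell at an unadjusted p under 0.05 either (0 of 10, limma). Hspa5 rose by 0.54 (adjusted p = 3.59e-05), Sdf2l1 by 0.62 (adjusted p = 0.0017), Hsp90b1 by 0.48 (adjusted p = 1.83e-05), Pdia6 by 0.46 (adjusted p = 2.27e-05), Calr by 0.39 (adjusted p = 2.38e-05) and Pdia4 by 0.23 (adjusted p = 0.00317). The median change of the 10 was 0.37 and that of all genes -0.00. The summed level of the 10 genes was 2004 ± 98.0 FPKM on day 2 and 2648 ± 124 on day 3, with controls at 2286 ± 49.9. Since day 2 also enters the comparison with control, the dip and the rise rest on the same 3 libraries of day 2. With any single library of days 2 or 3 left out, each of the 6 rises kept its call, but in a fit of these groups alone that of Pdia4 did not (adjusted p = 0.0702).

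From day 3 to day 4, 4 genes fell (Hsp90b1 by 0.29, Pdia4 by 0.29, Calr by 0.25 and Xbp1 by 0.39; adjusted p = 0.015, 0.00164, 0.013 and 0.00395), against 1.72% of all genes, and 0 rose (0 at an unadjusted p under 0.05), against 1.67%. From day 4 to day 6, Hspa5 rose by 0.47 (adjusted p = 0.000328), Dnajb9 by 0.50 (adjusted p = 0.00241) and Herpud1 by 0.58 (adjusted p = 1.05e-05), against 3.39% of all genes. Pdia6 fell by 0.26 in that step (adjusted p = 0.0151), against 6.52%. From day 6 to day 8 Calr alone was called, at -0.22 (adjusted p = 0.05, just inside the threshold and lost in each exclusion of a library of these days), against 0.727% lower and 0.716% higher. From day 8 to day 10 Calr fell by 0.33 (adjusted p = 0.00173), against 0.336% lower and 1.19% higher. At an unadjusted p under 0.05 (limma), 5 of the 10 genes were lower and 0 higher from day 6 to day 8. From day 8 to day 10, 6 were lower and 0 higher at that level. The share of all tested genes at that level is not given here. The summed level of the 10 genes was 2107 ± 62.8 FPKM on day 8 and 1857 ± 141 on day 10, the lowest of the groups.

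From day 10 to day 12 Hspa5 rose by 0.35 (adjusted p = 0.016) and Herpud1 by 0.34 (adjusted p = 0.0118), against 1.23% higher and 2.14% lower. The Hspa5 step lost its call when replicate 1 of day 10 (adjusted p = 0.114) or replicate 3 of day 12 (adjusted p = 0.0546) was left out, and the Herpud1 step when replicate 3 of day 10 (adjusted p = 0.0511) or replicate 1 of day 12 (adjusted p = 0.0875) was. From day 12 to day 14 Calr rose by 0.39 (adjusted p = 8.18e-05), against 1.16% higher and 2.42% lower. From day 14 to day 16 none of the 10 was called by limma (3 were lower at an unadjusted p under 0.05), against 1.12% higher and 0.817% lower. Several of the falls between days 3 and 6 also rested on single libraries. Between days 3 and 4, Hsp90b1 lost its call when replicate 2 or 3 of day 3 or replicate 1 of day 4 was left out (adjusted p = 0.0525, 0.0925 and 0.0791). Calr lost its call when replicate 2 of day 3 or replicate 3 of day 4 was (adjusted p = 0.0527 and 0.0893), and Xbp1 when replicate 2 of day 3 was (adjusted p = 0.0537). Between days 4 and 6, Pdia6 lost its call when replicate 3 of day 4 or replicate 1 or 3 of day 6 was left out (adjusted p = 0.0701, 0.0666 and 0.0789).

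Correlations of the 10 genes over the 10 group means are given as a description, since the points share libraries and their scaling. Of 45 pairs, 12 had a Pearson r above 0.5 and 5 below -0.5. Pdia4 and Xbp1 ran together (0.94), as did Hsp90b1 and Calr (0.83) and Hspa5 and Sdf2l1 (0.72). Herpud1 ran against Xbp1 (-0.87) and Pdia4 (-0.85). Over the 30 libraries, Hsp90b1 was the gene closest to the mean of the other 9 (r = 0.78), and Herpud1 was the farthest (r = -0.39). Outside the set, the 8 genes most like the mean of the members' standardised values, of 7166 with a mean of at least 5 FPKM, were Cyp20a1 (r = 0.74), Dnajb11 (0.73), Memo1 (0.73), Cdc42se2 (0.71), Vps4a (0.68), Txnip (0.68), Kif5b (0.68) and Zfp24 (0.68). Dnajb11 encodes ERdj3, another J-domain cochaperone of BiP, and held 44.4 to 68.9 FPKM.

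Other ER folding factors moved in both directions. Of 26 tested, 9 were higher and 8 lower at day 2 (median -0.05), against 30% and 30.7% of all genes, and 12 were higher and 7 lower at day 16 against control (median 0.11), against 32.4% and 35.0%. At day 2 the prolyl isomerase gene Fkbp7 rose from 45.5 ± 1.66 to 103 ± 4.84 FPKM (1.16 ± 0.13), while Creld2, a disulfide isomerase that ER stress is known to induce, fell from 51.1 ± 2.84 to 26.6 ± 1.97 (-0.92 ± 0.12). From day 2 to day 8, 8 were higher and 7 lower, against 17.4% and 18.4% of all genes. Ero1a, the oxidase that recharges disulfide isomerases, rose in that time from 12.5 ± 3.22 to 52.6 ± 3.40 FPKM (2.02 ± 0.22). Its relative Ero1b rose from 1.95 ± 0.23 to 6.40 ± 0.679 (1.33 ± 0.25). From day 8 to day 16, 8 were higher and 2 lower, against 15.8% and 14.4% of all genes. The collagen chaperone Fkbp10 rose in that time from 81.6 ± 3.04 to 133 ± 1.39 (0.70 ± 0.07). Fkbp10 had fallen from 143 ± 5.66 at day 2 to that day 8 level (-0.80 ± 0.07), and its controls held 103 ± 4.69. Sil1, the nucleotide exchange factor of BiP, rose from 20.7 ± 1.53 FPKM in controls to 51.3 ± 4.70 at day 16 (1.27 ± 0.12).

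An ERSE was found in the promoters of 15 tested symbols, 4 of them members and 4 more in the folding list. At day 16 against control, those 4 did not share a direction. Canx, which encodes the lectin chaperone calnexin, rose by 0.44 (adjusted p = 0.000187) and Ero1b by 1.12 (adjusted p = 0.0004), while Creld2 fell by 0.96 (adjusted p = 9.15e-08) and Dnajc3, which encodes an inhibitor of PERK, by 0.67 (adjusted p = 4.93e-05). Among the 4 members with the element, Hsp90b1 and Xbp1 were lower at day 16, and Hspa5 and Calr did not differ from control beyond the error.

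For ER-associated degradation, the pathway of Herpud1, 17 genes were tested. At day 2, 7 were higher and 3 lower (median 0.12), against 30% and 30.7% of all genes. The largest changes were in the lectin gene Os9 (51.7 ± 2.98 to 89.4 ± 5.39 FPKM, 0.78 ± 0.08) and Vimp (84.8 ± 6.88 to 142 ± 1.64, 0.74 ± 0.09). At day 16 against control 6 were higher and 3 lower, against 32.4% and 35.0% of all genes. Among them were Sel1l, the partner of the ligase HRD1 (24.2 ± 4.18 to 44.2 ± 6.55, 0.84 ± 0.17), and Edem2, a mannosidase, which was lower (28.3 ± 1.26 to 15.1 ± 2.34, -0.87 ± 0.13). Edem1 fell by 0.45 ± 0.10 from day 8 to day 16.

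Of 9 sensors and their proteases, 2 rose and 0 fell at day 2 (also 2 and 0 at an unadjusted p under 0.05), where 30% and 30.7% of all genes did. These were Mbtps1, the site-1 protease that cuts ATF6 (44.6 ± 3.70 to 65.4 ± 7.34 FPKM, 0.54), and Eif2ak3, which encodes PERK (7.17 to 10.2, 0.44). At day 16 against control 4 were higher and 1 lower, where 32.4% and 35.0% of all genes were. The lower gene was Creb3l1, a relative of ATF6 tied to matrix secretion (-1.89). From day 8 to day 16 none of the 9 was called by limma (2 higher and 1 lower at an unadjusted p under 0.05). Of all genes, 15.8% were called higher and 14.4% lower there.

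Of 9 tested genes in the PERK and ATF4 arm, 4 were higher and 1 lower at day 2 (median 0.38), against 30% and 30.7% of all genes. At day 16 against control 4 were higher and 3 lower (median 0.04), against 32.4% and 35.0%. Ddit3, which encodes the transcription factor CHOP, was at 31.7 ± 3.19 FPKM on day 2, rose to 62.5 ± 9.09 by day 8 (0.95 ± 0.12) and stood at 79.1 ± 8.41 at day 16 against 22.0 ± 4.11 in controls (1.81 ± 0.12, adjusted p = 8.31e-13). Chac1, a glutathione-degrading target of this arm, went the other way at day 16 (19.5 ± 2.93 to 9.37 ± 1.24 FPKM, -0.98 ± 0.14) after a rise at day 2 (0.60 ± 0.14). Ppp1r15a, which encodes the eIF2α phosphatase subunit GADD34, fell at day 2 (32.2 ± 1.80 to 18.6 ± 1.29, -0.76 ± 0.10) and was back at 37.3 ± 2.04 by day 8 (0.96 ± 0.10).

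The translocon and N-glycosylation genes bring proteins into the ER and add glycans. Of 21 tested, 2 were higher and 9 lower at day 2 (median -0.17), against 30% and 30.7% of all genes, and 4 were higher and 11 lower at day 16 against control (median -0.25), against 32.4% and 35.0%. Ssr1 and Ssr2, subunits of the translocon-associated TRAP complex, fell from 123 ± 12.8 to 49.8 ± 5.42 FPKM (-1.29 ± 0.11) and from 257 ± 21.4 to 136 ± 11.8 (-0.91 ± 0.08), and the channel gene Sec61a1 fell from 160.1 ± 8.26 to 87.3 ± 4.36 (-0.87 ± 0.09). Heat shock chaperones outside the ER, a list of mostly cytosolic genes that also holds the mitochondrial chaperonins Hspd1 and Hspe1, had 3 of 13 higher and 8 lower at day 2 (median -0.35), against 30% and 30.7% of all genes. The co-chaperone gene Stip1 went from 165 ± 14.0 to 69.8 ± 2.92 FPKM (-1.22 ± 0.11), Hspd1 from 322 ± 17.9 to 153 ± 5.43 (-1.06 ± 0.06) and Hspe1 from 796 ± 111 to 422 ± 80.4 (-0.92 ± 0.24). A share of lower calls at day 2 like that of the 10 genes was also seen outside the ER, and the difference between these lists was not tested.

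**Figure D4:**
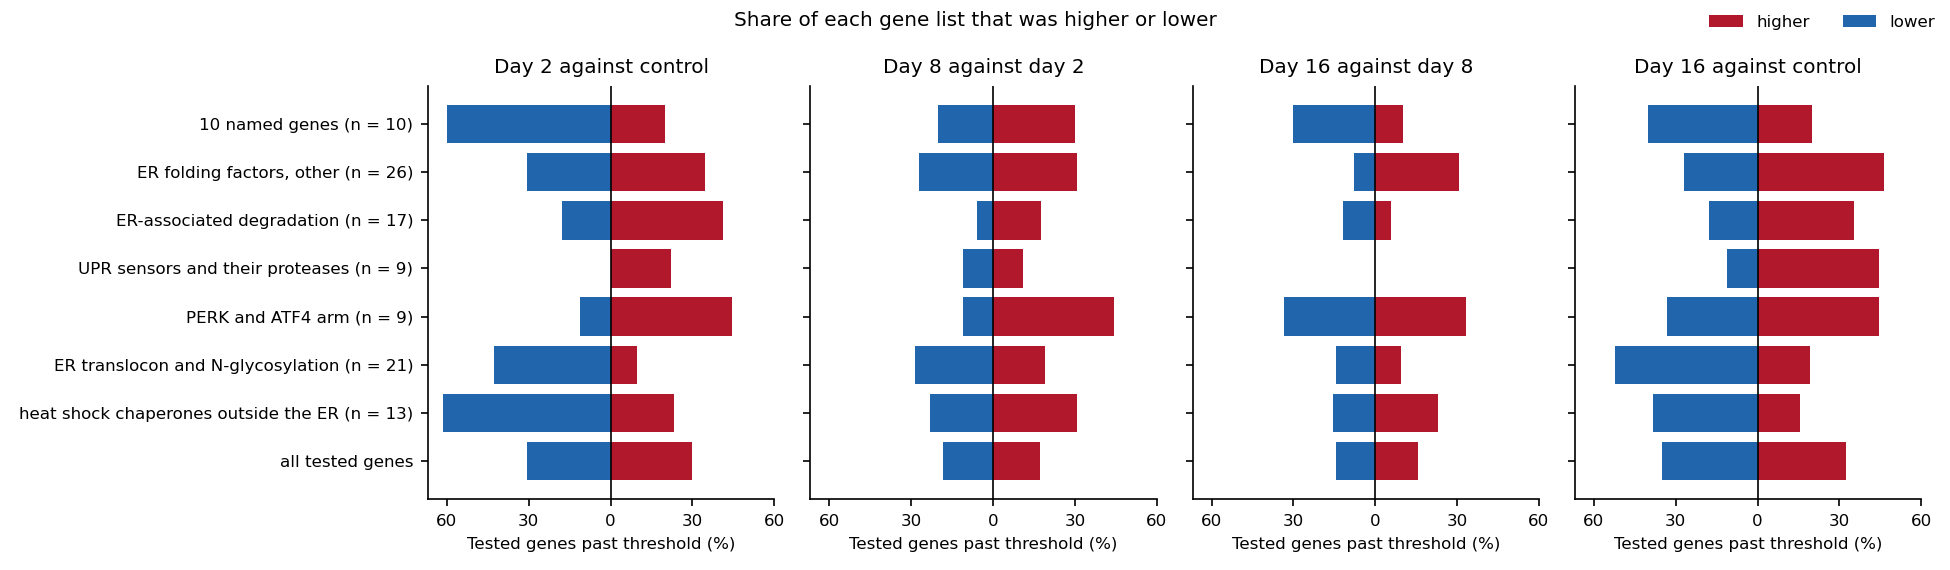
Share of the tested genes of each list that was higher (right) or lower (left) in the 4 comparisons, in percent, with all 8940 tested genes at the bottom. At day 2 against control, 6 of the 10 genes and 8 of 13 heat shock chaperones outside the ER are on the lower side, where 30.7% of all genes are.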

How the data were processed

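The authors deposited 1 table of FPKM per gene symbol for the 30 libraries, and, per the submitters' processing notes, used TopHat2 2.1.1, Cufflinks and Cuffnorm 2.2.1 with the build rn6. How Cuffnorm scaled the libraries, the annotation and any filter are not given in the sources used here. Groups followed the sample labels. Genes with a mean of at least 1 FPKM over 30 libraries were analysed as log2(FPKM + 1), so folds of low genes are understated. A limma 3.58.1 model (R 4.3.3) of 10 group means, with a mean-variance trend, gave 4 two-sided comparisons and an F test over the 9 starved groups, with Benjamini-Hochberg adjustment over all 8940 genes and a threshold of 0.05. It was run on simulated data with independent errors and no replicate effect, so that run says nothing of the replicate block. Steps between neighbouring days were added after the values were seen. The 10 genes and the gene lists were chosen with earlier results of these data known. From each list the up to 3 genes with the largest change past the threshold and a mean of at least 5 FPKM could be named. Other genes with an ERSE in the ER folding list, and the genes most like the set, were named as described there. Dnajc1 and Derl2 were not analysed here. Derl3 and Nupr1 are listed at 0, and the mean of Hspa1a was under 1 FPKM, so these were not tested.

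Same-numbered replicates of control and day 2 had deviations from their group means that correlated at 0.591, 0.209 and 0.188 over genes, and those of control and day 16 at 0.440, 0.135 and 0.357, all over 0.1. For the other 2 comparisons at least 1 correlation was lower (0.000524 and 0.0486). The best match by number did not follow this split. Replicate 3 of day 2 correlated better with a control of another number (0.291). Each replicate of day 16 correlated best with its own number at day 8. The labels do not say what a number marks. Alternatives were other scalings, filters, pseudocounts, the replicate block, no trend, fits of the compared groups alone, and leaving out libraries. Promoters came from RefSeq (GRCr8) and were read for motifs only.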

Additional observations from a re-analysis of the deposited data

How the results depend on the processing

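Over the 4 comparisons of the 10 genes, 357 results under other settings were the same in direction and side of the threshold, 15 lost their call, 24 gained one and 4 turned direction. With 1 library left out, these numbers were 216, 16, 4 and 4. With libraries rescaled to the same sum, 6 of the 10 genes were higher and 1 lower from day 2 to day 8, and 0 were higher and 6 lower from day 8 to day 16 (731 and 2458 of all genes, against 1412 and 1291), 1 was higher at day 16 against control, and Calr there turned to -0.063. Quantile normalization gave 1 lower from day 2 to day 8, 0 higher from day 8 to day 16 and 13 falls between neighbouring days (7 as reported), and turned Calr at day 2 to 0.10 and Hspa5 at day 16 against control to 0.043. Upper-quartile rescaling gave 12 such falls and 0.049 for Hspa5, and shifted the median of all genes at day 16 against control by 0.10.

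The replicate block gave 5 higher from day 2 to day 8 and 15 falls between neighbouring days, and changed no call against control other than those of Manf and Pdia6. Between days 2 and 8, the deviations of same-numbered libraries correlated at 0.0773, 0.000524 and 0.156. There the block called Hsp90b1 (adjusted p = 0.0175) and Dnajb9 (adjusted p = 0.0347). Replicates 2 and 3 alone gave 1 higher at day 16 against control. A fit of only the groups compared, with fewer samples to estimate the spread, gave 1 higher at day 2, 1 lower from day 2 to day 8, 1 higher at day 16 and 0 falls between neighbouring days. Leaving out each library in turn gave 1 to 3 higher at day 2, 1 to 2 lower from day 2 to day 8, 1 to 2 higher at day 16 and 3 to 8 falls between neighbouring days. The ranges were -0.021 to 0.039 for Calr at day 16 against control, -0.0057 to 0.11 for Pdia6 from day 2 to day 8 and -0.056 to 0.0096 for Hsp90b1 from day 8 to day 16. The cause of these differences was not tested. Depth is unknown, so its limits cannot be given.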
